A study of Homo sapiens with 33 samples.

Results

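The genes described here are the 57 replication-dependent core histone genes of HepG2 cells, an established line from a human liver tumour. They were chosen by symbol from the histone clusters, and all 57 were found among 78932 gene identifiers. There were 15 H2A, 16 H2B, 13 H3 and 13 H4 genes. On chromosome 6, 26 lay in a first cluster from 26020451 to 26285534 and 20 in a second from 27132316 to 27893891, and 11 lay on chromosome 1 from 149782689 to 149887965 (GRCh38.p14, RefSeq). RNA came from 12 libraries of cells sorted into the fractions G1, S1, S2, S3, S4 and G2 (2 libraries each, replicates 2 and 3) and from 3 libraries of bulk, unsorted cells. The labels name no genotype or treatment and give nuclear RNA as the molecule for all 15 libraries. The kits differed: one for total RNA at very low input was used after sorting, and one that selects polyadenylated mRNA for bulk. Sorting and kit therefore cannot be told apart in any comparison of sorted with bulk libraries. The other 18 samples of the series, which read the time at which DNA is copied, are not analysed here. No separate cultures are named for the replicates, so each p-value speaks of the variation among these libraries alone, and that may be technical.

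Values are TPM (transcripts per 1000000 transcripts), which divide reads by the length over which they were counted and by library size. That length exceeded the RefSeq span in 16 of the 54 members for which it could be recovered. A gene counted over a longer stretch has a lower TPM for the same reads, so rankings of members hold for TPM and not always for reads. The reads recovered from the values numbered 6129026 to 18485359 in sorted libraries and 22340963 to 24423744 in bulk libraries. Protein-coding genes held 11.2% to 15.5% of the TPM in sorted libraries and 76.7% to 77.6% in bulk libraries. Levels are therefore also given on a protein-coding scale, on which protein-coding genes other than histone and mitochondrial genes sum to 1000000 in each library. All 8 liver genes checked were above 0 in every sorted library. They summed to 3507 to 10536 TPM in sorted libraries and 34436 to 34702 TPM in bulk libraries. ALB lay at 1500 to 4887 TPM in sorted libraries and 14791 to 14868 TPM in bulk libraries. APOB was low in both, at 0.0506 to 0.318 TPM in sorted libraries and 0.0362 to 0.122 TPM in bulk libraries. The 5 fibroblast markers summed to 1.18 to 5.19 TPM in sorted libraries and 9.79 to 10.6 TPM in bulk libraries. The 4 endothelial markers summed to 0.858 to 3.19 TPM in sorted libraries and 0.585 to 0.898 TPM in bulk libraries. The 5 leukocyte markers summed to 175 to 445 TPM in sorted libraries and 1811 to 1972 TPM in bulk libraries, nearly all of it LYZ, while PTPRC was at most 0.0440 TPM in sorted libraries and 0 in bulk libraries.

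Replication-dependent histone genes supply the H2A, H2B, H3 and H4 proteins that package newly copied DNA. Their transcription, driven by cyclin E, CDK2 and the coactivator NPAT at the histone locus body, is highest in S phase. Their mRNAs have no introns and end in a stem-loop in place of a poly(A) tail. The stem-loop is bound by SLBP, the mRNA is cut with the help of the U7 small nuclear RNP, and the message is degraded when DNA synthesis stops. In proliferating or differentiating cells some of these genes can also give polyadenylated transcripts from sites further downstream.

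The promoters of these genes carry short shared elements, and those of 5 genes are shown because they bear on levels described further on. H2BC14 and H2BC7 each share their upstream region with an H2A gene that starts on the other strand inside the stretch shown. H3C2 was the most abundant member, H4C11 stands for the H4 promoters, and H2BC6 was nearly silent. Each sequence is the 250 bases before the start, read in the direction of the gene, from RefSeq (GRCh38.p14). H2BC14 is at chr6:27814772-27815021 (plus strand), H2BC7 at chr6:26199266-26199515 (plus), H3C2 at chr6:26032100-26032349 (minus), H4C11 at chr6:27823842-27824091 (plus) and H2BC6 at chr6:26183511-26183760 (plus). Capitals mark, on either strand, the letters TATAAA (core of the box bound by TBP), CCAAT (the element bound by the factor NF-Y) and ATTTGCAT (the octamer bound by OCT1, the product of POU2F1).
H2BC14: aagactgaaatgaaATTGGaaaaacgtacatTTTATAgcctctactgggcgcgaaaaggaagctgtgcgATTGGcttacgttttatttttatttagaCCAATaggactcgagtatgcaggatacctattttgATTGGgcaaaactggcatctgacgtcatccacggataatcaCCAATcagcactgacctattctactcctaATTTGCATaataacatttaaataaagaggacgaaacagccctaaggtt
H2BC7: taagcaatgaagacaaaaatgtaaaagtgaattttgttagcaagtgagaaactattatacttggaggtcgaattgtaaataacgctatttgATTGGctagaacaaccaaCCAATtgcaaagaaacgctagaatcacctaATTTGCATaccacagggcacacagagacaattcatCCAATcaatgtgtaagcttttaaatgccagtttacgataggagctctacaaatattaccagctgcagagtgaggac
H3C2: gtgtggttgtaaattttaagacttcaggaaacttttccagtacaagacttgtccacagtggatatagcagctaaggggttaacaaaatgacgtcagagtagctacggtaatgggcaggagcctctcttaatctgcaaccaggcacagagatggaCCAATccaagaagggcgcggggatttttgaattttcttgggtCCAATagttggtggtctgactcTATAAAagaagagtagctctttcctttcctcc
H4C11: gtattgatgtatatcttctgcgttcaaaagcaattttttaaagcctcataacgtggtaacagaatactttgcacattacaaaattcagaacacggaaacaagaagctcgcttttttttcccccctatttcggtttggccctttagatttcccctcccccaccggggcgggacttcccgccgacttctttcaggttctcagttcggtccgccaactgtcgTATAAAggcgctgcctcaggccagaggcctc
H2BC6: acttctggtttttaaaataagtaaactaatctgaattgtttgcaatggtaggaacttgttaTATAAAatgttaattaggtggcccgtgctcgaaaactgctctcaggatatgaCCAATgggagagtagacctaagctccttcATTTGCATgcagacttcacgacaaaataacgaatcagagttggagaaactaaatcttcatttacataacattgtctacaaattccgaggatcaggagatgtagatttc

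A promoter was at hand for 52 of the 57 members, as a window of 250 bases before to 50 bases after the start, and the same search was run over 27305 RefSeq promoters. Both strands were read, and matches to different motifs could overlap. H2AC7 and H3C4 have the same window in RefSeq, which leaves 51 distinct ones, and the windows of head-to-head genes overlap, so a match can count for both types. TATAAA occurred in 67.3% of the member promoters, against 11.95% of all promoters. CCAAT occurred in all 14 H2A, all 16 H2B and all 11 H3 promoters and in 3 of 11 H4 promoters, against 35.7% of all promoters. ATTTGCAT occurred in 13 of 16 H2B and 10 of 14 H2A promoters, in 1 of 11 H3 promoters, that of H3C4 shared with H2AC7, and in none of the 11 H4 promoters, against 1.80% of all promoters. Members under 1 TPM in the sorted mean had 7 distinct windows, of which all held CCAAT, 3 held TATAAA and 2 held ATTTGCAT. H2BC6, at a sorted mean of 0.227 TPM, held all 3 motifs. In the stretch printed above its TATAAA lies toward the end far from the start, whereas those of H3C2 and H4C11 lie close to the start. These matches are letters in a window and say nothing of binding.

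In the sorted libraries the members spanned levels from 0 to over 100 TPM. H4C13 was at 0 in all 15 libraries, and H3C11 and H4C6 were above 0 in 1 library each. In all, 29 members had a sorted mean of at least 10 TPM, 17 lay between 1 and 10 TPM, and 11 lay under 1 TPM. Of the 57, 45 were above 0 in all 12 sorted libraries. The 10 most abundant members held 56.4% of the summed sorted level. In bulk libraries 20 members were at 0 throughout and only 5 reached a mean of 5 TPM. The 46 members with a mean of at least 1 TPM were tested, the same 46 among the fractions and against bulk.

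**Figure D1:**
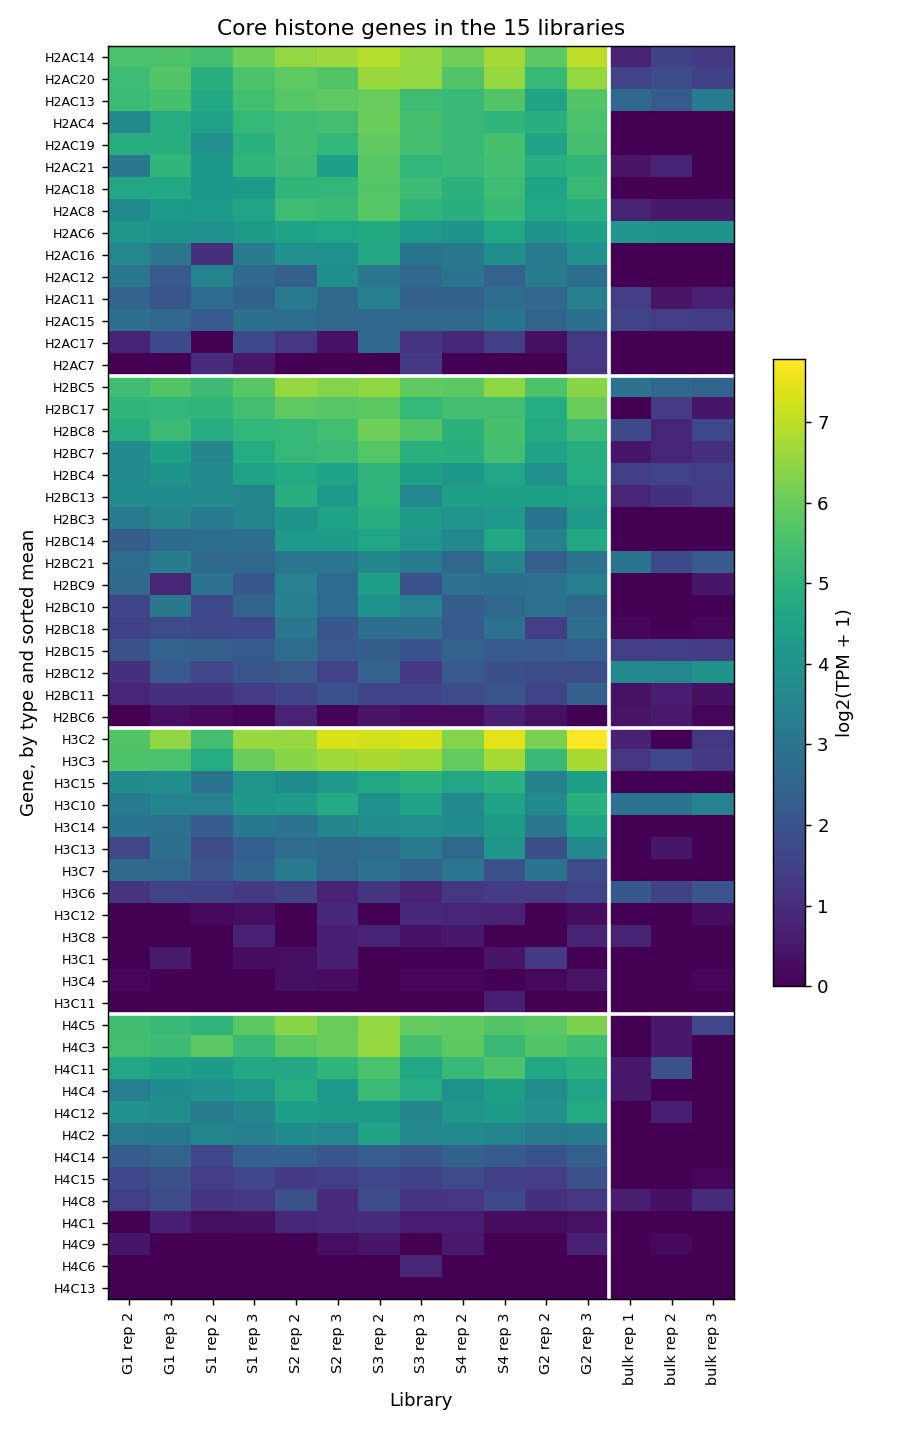
Level of each of the 57 core histone genes, as log2(TPM + 1), in the 12 sorted libraries (left of the white line, in the order of the cycle) and the 3 bulk libraries (right). Genes run down the page by type and by sorted mean, and 20 of them are dark in all bulk libraries.

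Among H2A genes, whose products pair with H2B in the nucleosome, H2AC14 had the highest sorted mean TPM. In reads H2AC8 was higher, with 4681 in sorted libraries over 1595 counted bases, against 3793 over 476 for H2AC14. H2AC14 (chromosome 6, 27814302 to 27814777) had a lowest value of 42.7, a median of 79.4 and a highest value of 128 TPM in sorted libraries, against 0.691, 1.90 and 1.502 TPM in bulk libraries. H2AC20, on chromosome 1, had 28.9, 50.9 and 96.1 TPM at these points of the sorted range, against 2.00, 2.56 and 1.81 TPM in bulk libraries. H2AC13 had 21.8, 43.2 and 61.9 TPM, against 5.32, 3.65 and 7.95 TPM in bulk libraries. None of these 3 genes had a sorted library that reached down to a bulk library. H2AC6 was different, with 14.6, 17.5 and 25.6 TPM in sorted libraries, against 15.9, 15.4 and 15.2 TPM in bulk libraries. Its sorted and bulk ranges overlapped, and it was the most abundant member in bulk.

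Among H2B genes, the partners of H2A in the dimer, H2BC5 had the highest sorted mean TPM. H2BC5 had 39.7, 56.9 and 93.7 TPM at the lowest, median and highest sorted library, against 6.88, 5.24 and 4.57 TPM in bulk libraries. H2BC17 had 27.05, 42.0 and 63.1 TPM in sorted libraries, against 0, 1.55 and 0.383 TPM in bulk libraries. H2BC8 had 26.1, 37.0 and 65.6 TPM in sorted libraries, against 2.35, 0.738 and 2.19 TPM in bulk libraries. Again no sorted library reached down to a bulk library. H2BC12 (chromosome 6, 27138293 to 27146858) ran the other way, with 1.08, 2.68 and 4.43 TPM in sorted libraries, against 11.99, 11.3 and 15.4 TPM in bulk libraries. Its groups did not overlap, and it was the only tested member of which every bulk library lay above every sorted one.

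H3C2 (chromosome 6, 26031589 to 26032099), one of the genes for the replicative histone H3, was the most abundant member of all. It had 43.4, 95.3 and 219 TPM at the lowest, median and highest sorted library, against 0.644, 0 and 1.40 TPM in bulk libraries. H3C3 had 26.6, 73.7 and 111 TPM in sorted libraries, against 1.35, 2.23 and 1.47 TPM in bulk libraries. H3C15 had 6.88, 16.5 and 30.2 TPM in sorted libraries and 0 in all bulk libraries. H3C15 lies on chromosome 1 beside a near-identical copy, H3C14, so how reads were divided between them is uncertain. H3C10 had 8.22, 15.3 and 29.5 TPM in sorted libraries, against 6.84, 7.22 and 10.01 TPM in bulk libraries, where it led the H3 genes. The sorted and bulk ranges of H3C10 overlapped at their edges.

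These H4 genes all encode the same protein, and 4 of the 13 had a sorted mean under 1 TPM. H4C5 had 32.7, 56.6 and 91.2 TPM at the lowest, median and highest sorted library, against 0, 0.438 and 2.17 TPM in bulk libraries. H4C3 had 36.7, 47.2 and 93.6 TPM in sorted libraries, against 0, 0.446 and 0 TPM in bulk libraries. H4C11 had 18.3, 24.8 and 47.3 TPM in sorted libraries, against 0.423, 2.78 and 0 TPM in bulk libraries, the highest bulk mean of its type. Each of these 3 genes was above every bulk library in every sorted library. Coding regions within a type are much alike, and the labels do not say how reads that fit several genes were counted, so levels of single members carry that uncertainty. In RefSeq, 9 members overlapped another gene and 7 of them another member, among them H2AC7 with H3C4, H4C9 with H2BC12, and H4C15 with H2AC19 and H3C15.

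Along the cycle, the summed level of the 57 genes was lowest in G1 and S1 and highest in S3 by the mean of both libraries. The replicate 2 libraries summed to 710 TPM in G1, 638 in S1, 1274 in S2, 1722 in S3, 1023 in S4 and 805 in G2. The replicate 3 libraries summed to 853 TPM in G1, 942 in S1, 1304 in S2, 1262 in S3, 1407 in S4 and 1494 in G2. Replicate 2 thus had its highest sum in S3 and replicate 3 in G2. The G2 libraries differed most from each other, with a mean of 1149 ± 487 TPM (SD, n = 2), and the S2 libraries least, at 1289 ± 21.2 TPM (SD, n = 2). In libraries of many cells, fewer cells that hold a transcript and less of it per cell cannot be told apart.

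On the protein-coding scale both replicates had their highest sum in S3 and their lowest in G1. There the replicate 2 libraries summed to 4617 in G1, 5506 in S1, 9773 in S2, 13527 in S3, 9245 in S4 and 7037 in G2. The replicate 3 libraries summed to 6829 in G1, 8541 in S1, 10253 in S2, 11188 in S3, 10535 in S4 and 9824 in G2. S4 and G2 thus lay below S3 in both replicates on this scale, but in only 1 of them on the TPM scale. Protein-coding genes held 15.4% of the TPM in G2 replicate 3 and 11.6% in G2 replicate 2.

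**Figure D2:**
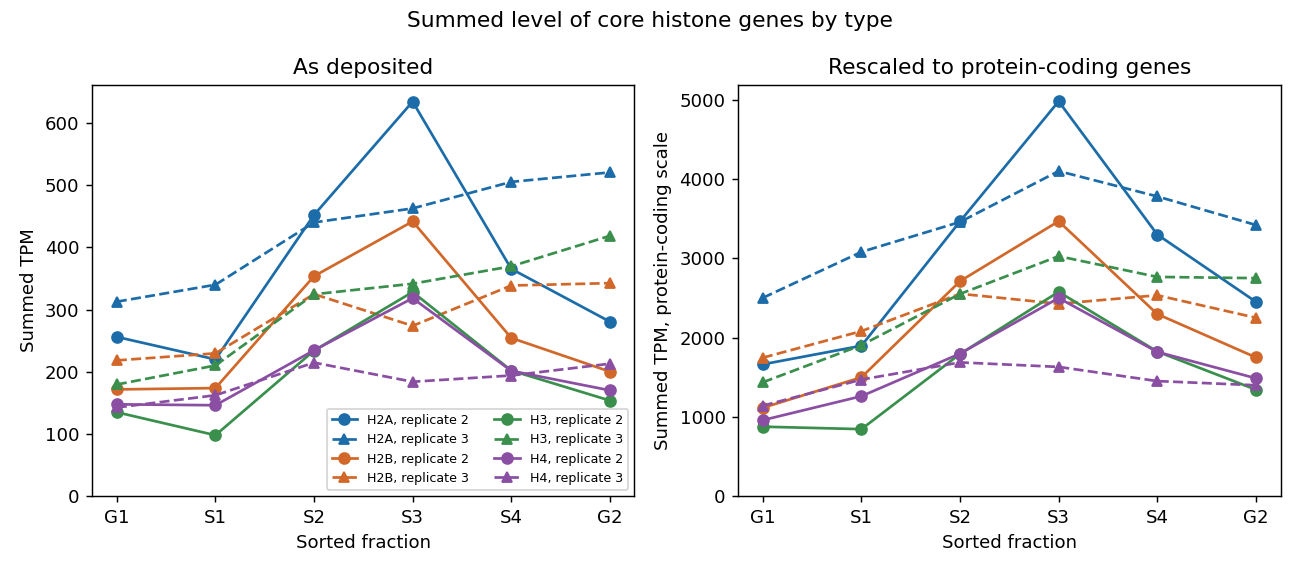
Summed level of the H2A, H2B, H3 and H4 genes in each sorted library, as TPM (left) and on the protein-coding scale (right). Circles with solid lines are replicate 2 and triangles with dashed lines replicate 3, and on the left they lie farthest apart in G2 for H2A and H3 and in S3 for H2B and H4.

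H2A genes held 35.6% of the summed sorted level, H2B 24.7%, H3 22.3% and H4 17.3%. Over single sorted libraries the H2A share moved least, from 33.7% to 36.8%, and the H3 share most, from 15.4% to 28.0%. By fraction means, H2A summed to 284 ± 40.0 TPM in G1, 280 ± 84.8 in S1, 446 ± 8.46 in S2, 548 ± 121 in S3, 435 ± 98.8 in S4 and 400 ± 170 in G2 (SD, n = 2 each). H4 summed to 145 ± 3.59 TPM in G1, 154 ± 11.3 in S1, 225 ± 13.97 in S2, 251 ± 95.0 in S3, 198 ± 5.30 in S4 and 192 ± 30.2 in G2 (SD, n = 2 each). H3 was the type that followed the replicate number most, with a higher sum in replicate 3 in all 6 fractions. The H3 sum in G2 was 418 TPM in replicate 3 and 154 TPM in replicate 2. The 11 genes of chromosome 1 summed to 159 ± 33.2 TPM in G1, 135 ± 48.7 in S1, 203 ± 19.9 in S2, 302 ± 30.4 in S3, 259 ± 68.8 in S4 and 209 ± 101 in G2 (SD, n = 2 each). The 26 genes of the first chromosome 6 cluster summed to 403 ± 65.7 TPM in G1, 435 ± 117 in S1, 723 ± 30.4 in S2, 832 ± 189 in S3, 628 ± 138 in S4 and 617 ± 242 in G2 (SD, n = 2 each). Both of these had their highest mean in S3. The 20 genes of the second chromosome 6 cluster summed to 219 ± 2.06 TPM in G1, 219 ± 48.8 in S1, 364 ± 10.7 in S2, 357 ± 106 in S3, 328 ± 64.9 in S4 and 323 ± 145 in G2 (SD, n = 2 each), with S2 and S3 apart by less than their spread.

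By the mean of both libraries, 25 of the 46 tested members were highest in S3, 9 in S2, 5 in S4, 4 in G2, 3 in G1 and none in S1, while 22 were lowest in G1 and 19 in S1. On the protein-coding scale 28 were highest in S3. In replicate 2, 31 members were highest in S3 and none in G2, whereas in replicate 3, 4 were highest in S3, 13 in S4 and 17 in G2. How many of all genes were highest or lowest in each fraction was not counted, so these numbers are not set apart from a general shift of the libraries. The mean over S1 to S4 lay above G1 in both replicate numbers for 33 of the 46 members, against 14.2% of the 17022 genes tested. On the protein-coding scale this held for 35 members, against 27.2% of genes. Both S2 libraries lay above both G1 libraries for 28 of the 46, against 7.87% of genes, and both S3 libraries for 27, against 8.97%. The mean over S1 to S4 lay above G2 in both replicate numbers for 12 members (26.1%) on the TPM scale, against 13.3% of genes. For the protein-coding scale the numbers were 25 members (54.3%) and 27.6% of genes.

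No member passed the test in any comparison among the fractions. Tests were made with limma over all 17022 genes, with Benjamini-Hochberg adjustment at 0.05 and no term for the replicate number. For S (the mean of S1 to S4) against G1, 0 of 46 members passed, where 0.0% of all genes did. The members' median log2 difference was 0.45, against -0.20 over all genes, which puts the members 0.65 above the general shift. At an unadjusted p under 0.05, 9 members were called, all higher in S, where 5.23% of all genes were called in either direction. By type the median was 0.54 for H2B, 0.51 for H3, 0.36 for H4 and 0.33 for H2A. With limma's voom on the recovered reads 0 members passed after adjustment and 21 had an unadjusted p under 0.05, where 4.59% of all genes did. That number was 20 on the protein-coding scale, where 4.54% of all genes were called, and 24 with median-ratio scaling, where 5.07% were. With 1 library left out at a time the members' median ran from 0.35 to 0.49.

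H2AC8 (chromosome 6, 26216921 to 26217437), an H2A gene, had the smallest p for S against G1 and for S against the gaps. Its values were 12.04 and 17.96 TPM in G1, 18.3 and 22.3 in S1, 40.4 and 37.6 in S2, 53.5 and 33.05 in S3, 28.4 and 37.6 in S4 and 23.2 and 29.0 in G2 (replicate 2, then replicate 3). Every S library of H2AC8 lay above both G1 libraries, and S2 and S3 lay above both G2 libraries. The log2 difference of S over G1 was 1.08 ± 0.25 (SE, limma, adjusted p = 0.816). H2BC14, an H2B gene, had 3.96 and 5.28 TPM in G1, 6.20 and 6.22 in S1, 17.5 and 18.6 in S2, 23.1 and 16.05 in S3, 11.48 and 23.8 in S4 and 9.53 and 25.6 in G2. Its S2, S3 and S4 libraries were all above its G1 and S1 libraries. The log2 difference of S over G1 was 1.42 ± 0.36 for H2BC14 (SE, limma, adjusted p = 0.816).

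For S against the gaps (the mean of G1 and G2), 0 of 46 members passed with limma, where 0.00587% of all genes did. The members' median was 0.25, against -0.16 over all genes, and 4 members had an unadjusted p under 0.05, where 4.21% of all genes did. That number was 16 on the protein-coding scale, where 3.68% of all genes were called, and 18 with median-ratio scaling, where 4.21% were. With 1 library left out at a time the members' median ran from 0.087 to 0.43. Beside H2AC8, with a log2 difference of 0.69 ± 0.20 (SE, limma, adjusted p = 0.858), the smallest p belonged to H4C2. H4C2 had 8.18 and 7.83 TPM in G1, 10.8 and 9.47 in S1, 12.8 and 11.3 in S2, 21.5 and 11.45 in S3, 11.9 and 10.3 in S4 and 8.27 and 8.79 in G2. All 8 of its S libraries lay above all 4 G1 and G2 libraries, and its log2 difference was 0.50 ± 0.18 (SE, limma, adjusted p = 0.858).

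For G2 against S, 0 of 46 members passed with limma, where 0.00587% of all genes did, and 0 had an unadjusted p under 0.05, where 1.7% of all genes did. With voom on the recovered reads 0 members passed. At an unadjusted p under 0.05 there was 1 member on the protein-coding scale, where 1.93% of all genes were called, and 3 with median-ratio scaling, where 2.1% were. The members' median was -0.071, against 0.12 over all genes. With 1 library left out at a time it ran from -0.41 to 0.24. The smallest p belonged to H4C2, at -0.46 ± 0.23, and H2BC3, at -0.48 ± 0.32 on the log2 scale (SE, limma, adjusted p = 1 for both). H2BC3, an H2B gene, had 8.04 and 10.7 TPM in G1, 7.98 and 10.5 in S1, 15.3 and 21.6 in S2, 29.3 and 18.3 in S3, 15.8 and 17.3 in S4 and 7.09 and 17.3 in G2. One of its G2 libraries lay below its S range and the other within it, and without G2 replicate 2 its difference was 0.11.

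For G2 against G1, 0 of 46 members passed with limma, where 0.00587% of all genes did, and 4 had an unadjusted p under 0.05, where 2.76% of all genes did. That number was 9 on the protein-coding scale, where 2.86% of all genes were called, and 8 with median-ratio scaling, where 3.09% were. The members' median was 0.36, against -0.083 over all genes. Without G2 replicate 3 it was 0.044, against -0.32 over all genes. Without G2 replicate 2 it was 0.73, against 0.16 over all genes. H2BC14 had a log2 difference of 1.59 ± 0.46 and H2BC11 of 1.05 ± 0.34 (SE, limma, adjusted p = 1 for both). H2BC11 had 0.747 and 1.15 TPM in G1, 1.14 and 1.62 in S1, 2.10 and 2.86 in S2, 2.11 and 1.96 in S3, 2.48 and 3.06 in S4 and 2.05 and 4.28 in G2. Both G2 libraries of each gene were above both of its G1 libraries.

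Over S1 to S4 the slope was positive for 43 of the 46 members, with a median of 0.16 log2 units a fraction, against 0.041 over all genes. It was positive for 41 on the protein-coding scale and for 40 with median-ratio scaling, where the medians over all genes were 0.030 and -0.00044. The share of all genes with a positive slope was not counted. No member passed with limma, where 0.0% of all genes did, and 7 had an unadjusted p under 0.05, where 2.94% of all genes did. That number was 8 on the protein-coding scale, where 4.4% of all genes were called, and 8 with median-ratio scaling, where 4.81% were. With 1 library left out at a time the members' median slope ran from 0.094 to 0.21. H2AC18 had 24.6 and 24.3 TPM in G1, 16.6 and 17.9 in S1, 33.7 and 34.8 in S2, 50.5 and 39.4 in S3, 30.8 and 40.1 in S4 and 22.1 and 37.0 in G2. It has a near-identical neighbour, H2AC19, and its S1 libraries were the lowest of all 12. H3C15 had 12.4 and 13.1 TPM in G1, 6.88 and 15.6 in S1, 12.8 and 17.3 in S2, 24.3 and 30.2 in S3, 23.2 and 30.2 in S4 and 9.80 and 19.8 in G2. Its S3 and S4 libraries were above the other 8. The slopes were 0.33 ± 0.094 for H2AC18 and 0.46 ± 0.13 for H3C15 (SE, limma, adjusted p = 1 for both). For any difference among the 6 fractions, 0 of 46 members passed with limma, where 0.0176% of all genes did, and 4 had an unadjusted p under 0.05, where 2.76% did, with H2BC14 and H2AC8 lowest (adjusted p = 1 for both). That number was 13 on the protein-coding scale, where 3.37% of all genes were called, and 15 with median-ratio scaling, where 4.07% were. With 1 library left out, the largest log2 difference between fraction means ran from 1.69 to 2.255 for H2BC14 and from 1.18 to 1.79 for H2AC8.

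Head-to-head pairs, whose H2A and H2B genes start 194 to 248 bases apart on opposite strands, ranged from near equal levels to a ratio of 81.9. H2BC7 averaged 29.1 TPM and H2AC7 0.355 TPM over the sorted libraries, that ratio of 81.9, and they start within or at the end of the stretch printed above. H2AC7 was at 0 in 8 of the 12 sorted libraries. Its RefSeq span overlaps H3C4, and whether that bears on its level was not tested. H2BC17 averaged 43.3 TPM and H2AC17 1.47 TPM, a ratio of 29.5. H2AC20 was 8.63 times H2BC21, and H2AC14 was 5.76 times H2BC14. The closest pairs were H2BC4 with H2AC6, at 20.3 and 18.9 TPM, and H2BC8 with H2AC8, at 38.4 and 29.5 TPM, and H2AC15 with H2BC15, at 5.48 and 3.93 TPM. In 4 of the 9 pairs the H2B gene had the higher mean TPM, and in 5 the H2A gene. TPM divides by the length over which reads were counted, which could differ within a pair. H2AC8 had 4681 sorted reads over 1595 bases and H2BC8 1845 over 489, so that pair has the other order in reads. H2AC20 had 3051 reads over 494 bases and H2BC21 1604 over 2224, the same order as in TPM. Pairs were sought only among the 52 members with a promoter at hand. H2AC12, which lies beside H2BC12, had none and could not be paired.

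**Figure D3:**
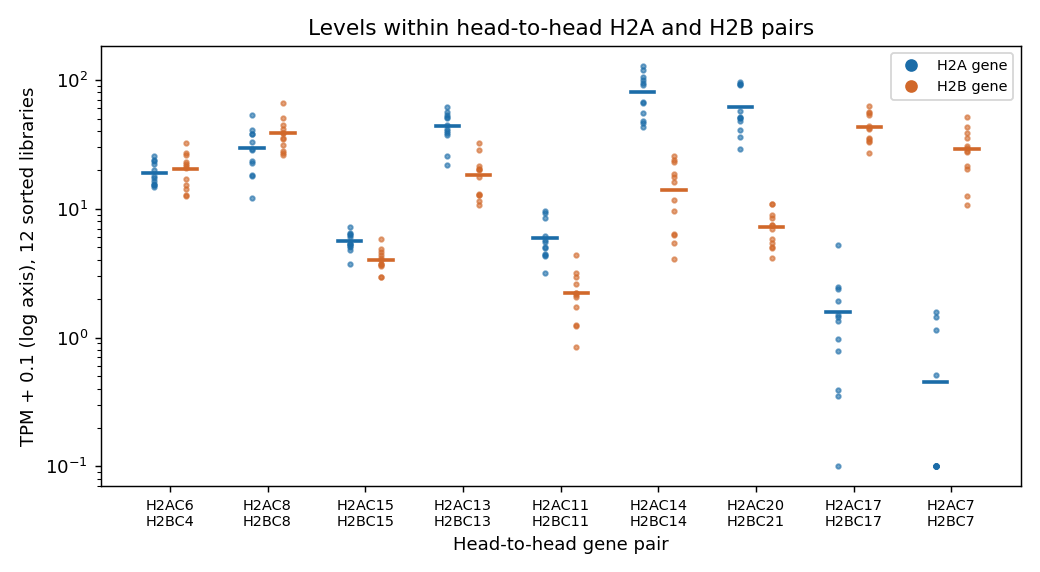
Level of the H2A gene (blue, left) and the H2B gene (orange, right) of 9 head-to-head pairs, as TPM plus 0.1 on a log axis. Each point is 1 of the 12 sorted libraries and each line the mean, and the gap within a pair widens from 20.3 against 18.9 TPM at the left to 29.1 against 0.355 TPM at the right.

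Core histone genes held a larger share of the TPM in sorted libraries than in bulk libraries. The 57 genes summed to 1120 ± 340 TPM in sorted libraries (SD, n = 12) and 76.3 ± 5.51 TPM in bulk libraries (SD, n = 3), a ratio of 14.7. On the protein-coding scale the sums were 8906 and 99.1, a ratio of 89.8. The lowest sorted library, S1 replicate 2, had 638 TPM, and the highest bulk library had 81.8 TPM. H4 genes had the largest ratio, 63.6, at 194 ± 49.2 TPM in sorted libraries and 3.05 ± 1.63 TPM in bulk libraries. H2B genes had the smallest, 8.80, at 277 ± 83.8 TPM in sorted libraries and 31.5 ± 3.09 TPM in bulk libraries (SD, n = 12 and n = 3). H3 genes summed to 250 ± 103 TPM in sorted libraries and 13.6 ± 2.42 TPM in bulk libraries, and H2A genes to 399 ± 124 TPM in sorted libraries and 28.1 ± 1.36 TPM in bulk libraries.

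By gene, 43 of the 46 tested members rose in sorted libraries and 2 fell (limma, Benjamini-Hochberg adjustment over 17174 genes), where 23.1% of all genes rose and 57.8% fell. The filter of a mean of at least 1 TPM runs over 15 libraries, 12 of them sorted, so 30 of the 46, with a bulk mean under 1 TPM, passed it through the sorted libraries and could hardly lie lower there. Of the 16 with a bulk mean of at least 1 TPM, 13 rose and 2 fell. Without a filter or a test, the sorted mean lay above the bulk mean in 53 of the 57 members and below it in 3, and H4C13 was at 0 in both. The tested members' median log2 difference was 3.34, against -0.99 over all genes, which puts the members 4.33 above the general shift. On the protein-coding scale 45 members rose and none fell, where 63.2% of all genes rose, and the median over all genes was 1.31. Every sorted library lay above every bulk library for 40 members, where this held for 15.3% of genes. By type, 13 of 14 H2A, 14 of 15 H2B, 7 of 8 H3 and 9 of 9 H4 genes tested rose. On the log2(TPM + 1) scale the largest rise was that of H3C2, at 6.05 ± 0.39 (SE, limma, adjusted p = 3.09e-08). H4C3, with 1 read in all bulk libraries, rose by 5.48 ± 0.23 (SE, limma, adjusted p = 8.64e-10). H2AC4, an H2A gene, had 11.8, 36.6 and 64.5 TPM at the lowest, median and highest sorted library and no read in any bulk library. It rose by 5.12 ± 0.23 (SE, limma, adjusted p = 2.00e-09), and its sorted mean was at least 110 times the level that 3 reads over the bulk group would give. The order of these 3 genes depends on the added 1 TPM, since with 0.1 TPM added the differences were 7.75 for H3C2, 8.13 for H4C3 and 8.40 for H2AC4.

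Of the members tested, 14 had no read in bulk, so their fitted differences depend on the added 1 TPM and are not bounds. Against 3 reads over the bulk group, H2AC19 was at least 108-fold higher, H2AC18 at least 94.8-fold, H4C2 at least 94.0-fold and H2BC14 at least 37.4-fold higher in sorted libraries. Other abundant members rose by 5.11 ± 0.29 (H4C5), 5.05 ± 0.25 (H2AC14), 4.82 ± 0.28 (H2BC17), 4.70 ± 0.31 (H3C3) and 4.22 ± 0.27 log2 units (H2AC20). The others of the leading genes rose by 4.13 ± 0.23 (H3C15), 4.06 ± 0.33 (H4C11), 3.85 ± 0.22 (H2BC8), 3.28 ± 0.21 (H2BC5) and 2.74 ± 0.27 log2 units (H2AC13), and H3C10 rose by 0.89 ± 0.27 (SE, limma). The largest adjusted p among these 11 genes was that of H3C10, at 0.00966.

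A few genes carried most of the bulk level. H2AC6, with a mean of 15.5 TPM, and H2BC12, with 12.9 TPM, held 37.2% of the summed bulk level, and with H3C10, H2AC13 and H2BC5 62.4%. H2BC12 fell by 1.94 ± 0.27 in sorted libraries (SE, limma, adjusted p = 3.21e-05), but had a difference of 0.27 ± 0.38 on the protein-coding scale (adjusted p = 0.529) and of -0.71 ± 0.31 with median-ratio scaling (adjusted p = 0.0560). H3C6 had 0.673, 1.53 and 1.98 TPM at the lowest, median and highest sorted library, against 3.38, 1.82 and 3.14 TPM in bulk libraries, and its groups overlapped. H3C6 fell by 0.61 ± 0.21 (SE, limma, adjusted p = 0.0196), but was higher by 1.43 ± 0.30 on the protein-coding scale (adjusted p = 0.00131). Its call was lost without bulk replicate 1 (adjusted p = 0.112) and without bulk replicate 3 (adjusted p = 0.0929). H2AC6 did not pass, at 0.24 ± 0.16 (SE, limma, adjusted p = 0.175), but rose by 2.82 ± 0.12 on the protein-coding scale (adjusted p = 5.9e-09).

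**Figure D4:**
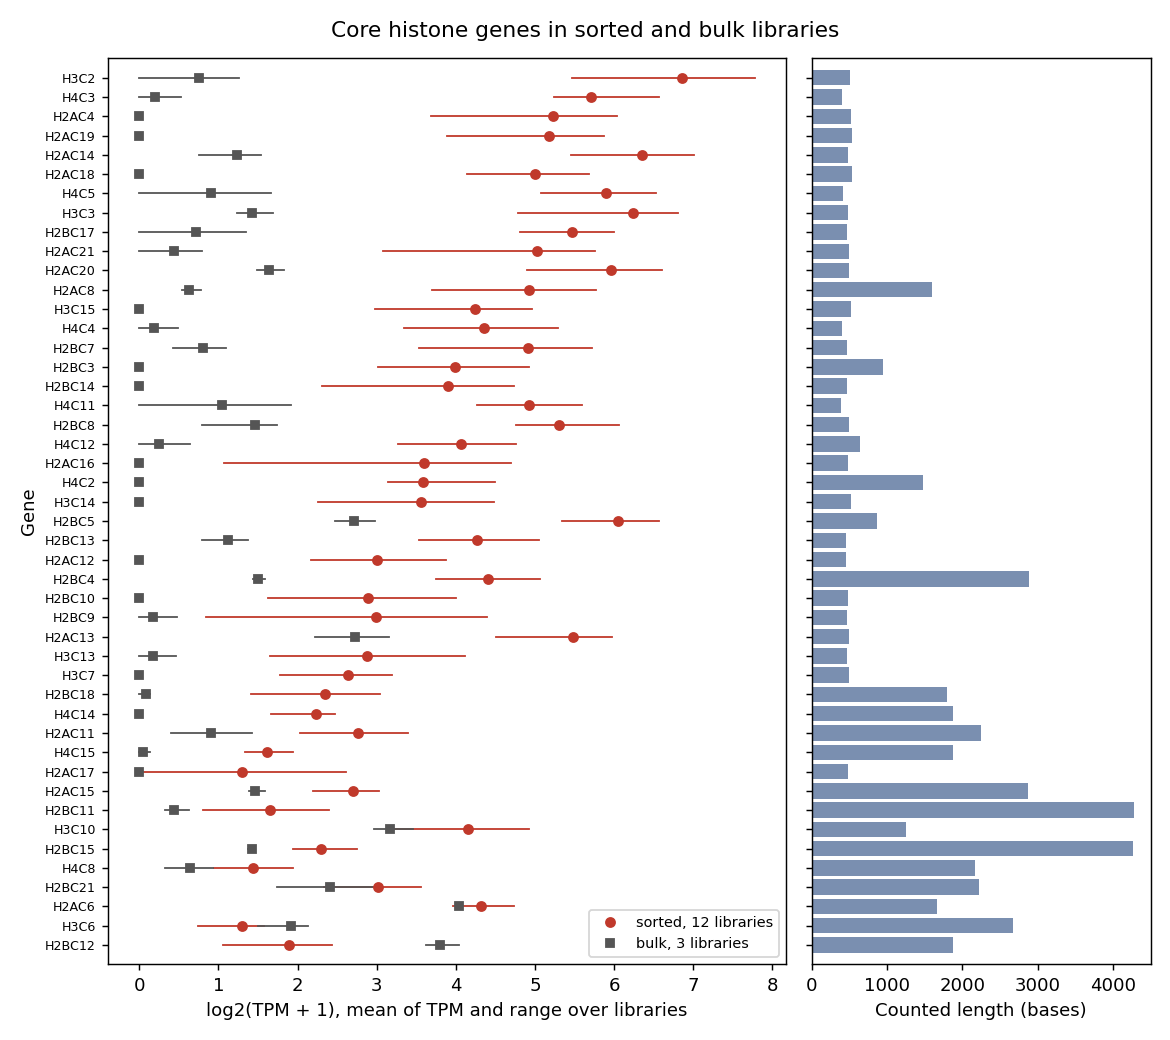
Level of the 46 tested members in sorted libraries (red circles, mean of 12) and bulk libraries (grey squares, mean of 3), as log2(TPM + 1) with lines from the lowest to the highest library. Genes run down the page from the largest difference to the smallest, and the bars at the right give the length over which reads were counted, which is over 600 bases for all genes near the bottom except H2AC17.

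The 3 members without a rise on the TPM scale had long counted lengths. The length over which reads were counted could be recovered for 54 members. It equalled the RefSeq span of the gene for 31 members and exceeded it for 16. It was 389 to 534 bases in 30 members, close to the size of a stem-loop mRNA. These 30 summed to 886 TPM in sorted libraries and 18.9 TPM in bulk libraries, and the median difference of the 27 tested was 4.06. The other 24 had 643 to 4286 bases and summed to 234 TPM in sorted libraries and 57.4 TPM in bulk libraries, with a median difference of 1.56 over the 19 tested. H2BC12, with 1879 bases, H3C6, with 2679, and H2AC6, with 1668, were all in the longer group. In reads, the shorter group had 42033 in sorted and 154 in bulk libraries, and the longer group 35561 in sorted and 1833 in bulk libraries. The split at 600 bases was chosen after the lengths were seen, and what it has to do with the levels was not tested.

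Of 39 genes for the synthesis, processing and decay of histone mRNA, 36 were tested and none passed in any comparison among the fractions (limma), nor did any have an unadjusted p under 0.05. SLBP, which binds the stem-loop, had 18.1 and 35.0 TPM in G1, 10.4 and 25.04 in S1, 13.3 and 24.5 in S2, 10.9 and 15.5 in S3, 11.4 and 18.2 in S4 and 10.4 and 28.9 in G2. It was higher in replicate 3 in every fraction, and both replicates were highest in G1. Its log2 difference of S over G1 was -0.68 ± 0.46 (SE, limma, adjusted p = 0.816). In sorted libraries, 33 of the 36 fell against bulk and 1 rose, where 57.8% of all genes fell and 23.1% rose, but on the protein-coding scale 17 rose and 6 fell, where 63.2% of all genes rose and 13.1% fell. SLBP averaged 18.5 ± 8.18 TPM in sorted libraries and 128 ± 4.73 TPM in bulk libraries, a log2 difference of -2.84 ± 0.33 (SE, limma, adjusted p = 7.09e-06), but of -0.30 ± 0.35 on the protein-coding scale (adjusted p = 0.445).

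NPAT, the coactivator of the histone locus body, averaged 3.87 ± 0.777 TPM in sorted libraries and 10.5 ± 0.319 TPM in bulk libraries. It fell by 1.26 ± 0.18 (SE, limma, adjusted p = 3.86e-05), but rose by 1.09 ± 0.21 on the protein-coding scale. LSM11, a protein of the U7 particle, averaged 1.93 ± 0.599 TPM in sorted libraries and 18.1 ± 1.39 TPM in bulk libraries and fell by 2.73 ± 0.21 (SE, limma, adjusted p = 1.49e-07), with a difference of -0.63 ± 0.27 on the protein-coding scale (adjusted p = 0.0503). ZNF473, which acts with the U7 particle, averaged 4.88 ± 1.76 TPM in sorted libraries and 11.7 ± 1.29 TPM in bulk libraries and fell by 1.16 ± 0.25 (SE, limma, adjusted p = 0.00119), but rose by 1.23 ± 0.27 on the protein-coding scale. CTIF, a factor in the translation of newly made mRNA, was the 1 gene that rose, with 2.46 ± 0.762 TPM in sorted libraries and 1.21 ± 0.692 TPM in bulk libraries, a difference of 0.66 ± 0.25 (SE, limma, adjusted p = 0.0277). CASP8AP2 (FLASH), a partner of NPAT and LSM11, averaged 0.782 ± 0.277 TPM in sorted libraries and 0.0711 ± 0.0239 TPM in bulk libraries and lay under the filter. RNU7-1, the U7 RNA itself, was above 0 in 1 library alone, S1 replicate 2.

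Among 6357 protein-coding genes that are no histones, 3 followed the members' mean most closely over the 12 sorted libraries. Pearson's r of log2(TPM + 1) with the members' mean was 0.969 for FBXO43, 0.959 for HMGB2 and 0.947 for INCENP. FBXO43, an inhibitor of the anaphase-promoting complex, had 2.71 and 3.35 TPM in G1, 12.6 and 7.78 in S3 and 4.52 and 10.04 in G2. HMGB2, a chromatin protein, had 19.6 and 27.7 TPM in G1, 59.6 and 40.2 in S3 and 25.7 and 48.5 in G2. INCENP, a subunit of the chromosomal passenger complex, had 6.53 and 7.95 TPM in G1, 33.9 and 21.4 in S3 and 14.3 and 29.0 in G2. Like the histone sum, all 3 were higher in replicate 3 than in replicate 2 in G2 and lower in S3. These values share their libraries and scale and are given as a description.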

How the data were processed

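The 15 RNA libraries came from HepG2 cells. Per the labels' protocols, sorted libraries came from a stranded total RNA kit for very low input and bulk libraries from a stranded mRNA kit. Of tools, HISAT2, BWA, SAMtools, cutadapt and Trimmomatic stand in the submitters' processing notes, with the build hg38. For the role of each, and for how genes were counted, nothing was given in the sources used here. Files deposited by the authors hold log2 values, whose back-transformed values sum to 1000000 in each library, so the deposited unit is log2(TPM + 1). The tests had been set for TPM and were kept.

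Groups and replicate numbers come from the labels. The members and gene lists were chosen with earlier results of these data known. Read numbers and counted lengths were recovered from the steps of TPM for all 50310 genes with a value over 0 in 3 or more libraries (whole within 0.02), so depth is that of recovered reads. Intervals and floors of 3 reads cover counting error only. limma 3.58.1 (R 4.3.3) with an intensity trend was fitted to log2(TPM + 1) for genes with a mean of at least 1 TPM, with a pseudocount of 1, which understates the change of low genes. The fit of 12 sorted libraries gave the comparisons among fractions, and the fit of 15 gave sorted against bulk. p-values were adjusted over all genes tested. The test was checked on simulated data, drawn independently for each library with no shared replicate effect. That check does not cover the likeness among libraries of one replicate number described below.

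Genes named were, per type, the 3 with the highest sorted mean and the highest in bulk. To these came the 2 with the smallest p in each comparison among fractions, since none passed, and the 3 largest rises and 3 largest falls or smallest rises against bulk. Alternatives changed the pseudocount, filter, scaling, trend, replicate term, unit and libraries. Positions and promoters are from RefSeq. Replicates of a group differed beyond sampling noise (smallest chi-square 2.85 times its degrees of freedom).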

Additional observations from a re-analysis of the deposited data

How the results depend on the processing

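No member passed the test in any of the 6 comparisons among the fractions under any alternative run, and the median differences of the members kept their sign in S against G1 and in S against the gaps. Leaving out 1 library at a time gave medians of 0.35 to 0.49 for S against G1, 0.087 to 0.43 for S against the gaps, 0.044 to 0.73 for G2 against G1, -0.41 to 0.24 for G2 against S and 0.094 to 0.21 for the slope. The sign of G2 against S turned without G2 replicate 2, as did the difference of H2BC3, whose values lay between -1.07 and 0.11. Against bulk, leaving out 1 library gave 40 to 43 members that rose, 1 to 2 that fell, a median of 3.23 to 3.41 and a ratio of sums of 13.96 to 15.3. The count of members that fell was 0 with median-ratio scaling, 0 on the protein-coding scale and 1 with voom on recovered reads. With the filter at a mean of 5 TPM it was also 0. H2BC12 and H3C6 lay under that filter over the 15 libraries and were not tested, so neither could be counted there. The median against bulk was 3.82 with median-ratio scaling, 6.08 on the protein-coding scale, 5.25 with a pseudocount of 0.1 and 6.62 with voom. With the filter at 5 TPM it was 3.87 and with no filter 2.74, each over another set of members than in the main test. The ratio of sums was 89.8 on the protein-coding scale. The sign turned for H2BC12 on the protein-coding scale (0.27) and for H3C6 with median-ratio scaling (0.29), on the protein-coding scale (1.43) and with voom (0.63). The cause of these changes was not tested. Of 611 values of single genes under an alternative, 600 kept their direction and their side of the threshold, and 5 turned. Another 3 came to pass the threshold and 3 no longer passed it. Most alternatives left out 1 library, and genes under a stricter filter gave no value there. The genes were picked by level, p or size of change, and a value for any difference cannot turn, so the 600 are partly built in. With a replicate block the count of members that passed stayed 0 in each comparison among the fractions, and the members with an unadjusted p under 0.05 numbered 14 for S against G1, 8 for S against the gaps, 9 for G2 against G1, 1 for G2 against S, 13 for the slope and 15 for any difference. Over all genes the share with the block was 12.5% for S against G1, 11.03% for S against the gaps, 5.20% for G2 against G1, 3.89% for G2 against S, 7.64% for the slope and 7.06% for any difference, in each case over 1.5 times that without it. Replicate differences correlated at 0.308 to 0.379 between fractions and each of the 12 sorted libraries was closest to one of its own number, a hint from the data, since each comparison has only 2 same-numbered pairs and the labels name no shared culture. Bulk libraries had 154 reads in all over the 30 members of shorter counted length, which limits the precision of their bulk levels.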
